A study of Mus musculus with 8 samples.

Results

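The transcripts of 9 costimulatory receptors were followed in effector Treg (eTreg) cells from tumors and spleens of mice with and without Blimp1 in Foxp3-expressing cells. They were taken by gene symbol from the 49212 genes counted in every library, and all 9 passed the filter on low counts in every comparison. The TNF receptor superfamily gave 7 of them: Tnfrsf18 (GITR), Tnfrsf4 (OX40), Tnfrsf9 (4-1BB), Tnfrsf1b (TNFR2), Tnfrsf8 (CD30), Tnfrsf25 (DR3) and Cd27. Cd28 and Icos belong to the CD28 family.

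Receptors of the TNF family bind trimeric ligands and recruit TRAF adaptor proteins, or TRADD in the case of DR3, which leads to NF-kappaB activation, survival and proliferation. CD28 and ICOS bind B7 family ligands on antigen-presenting cells and add a phosphoinositide 3-kinase signal to that of the T cell receptor. Treg cells are known for high surface GITR, OX40, TNFR2 and ICOS, and several of these receptors are targets of agonist or depleting antibodies in cancer. Blimp1, encoded by Prdm1, is a transcriptional repressor found in eTreg cells.

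RNA-seq was performed on YFP+CD44+ T cells, further gated as CD45+CD3+CD4+, sorted from C57BL/6 mice bearing subcutaneous B16-OVA melanoma of at most 1.5 cm3. Every mouse carried the Foxp3-YFP-Cre allele, in which the Foxp3 locus drives YFP and Cre, and the KO group carried Prdm1 fl/fl in addition, whereas the WT group was Foxp3-YFP-Cre alone. All groups received tumor cells and a first dose of NP-OVA, in complete adjuvant, on day 0 and a second dose, in incomplete adjuvant, on day 7, and the methods give an age of 5 to 10 weeks and both sexes. WT spleen, KO spleen, WT TIL and KO TIL had 2 libraries each. Whether a library held 1 mouse or several is not stated in the sources used here, so p-values measure only the spread between these libraries.

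Each library held between 27834676 and 43903859 counts on genes, and the counts of a single receptor ran from 91 to 100238. The Prdm1 level did not separate the genotypes in spleen (54.1 and 21 CPM in WT, 40.7 and 53.4 CPM in KO) and did so in TIL (108.4 and 192.1 CPM against 90.7 and 75.1 CPM). Exons that a deletion leaves are still counted, so these totals do not check the deletion, and KO below means the libraries labelled KO. Against its label, the KO TIL group was low in the markers of the sort. Foxp3 was at 10.2 and 2.99 CPM against 25.5 and 60.5 in WT TIL, and Cd4, on which the cells were gated, was at 147.8 and 66.2 CPM against 807.4 and 1086. WT spleen replicate 2 also stood apart from replicate 1, with 383.9 against 891.4 CPM of Cd4 and a macrophage marker sum of 2179.8 against 463.6 CPM. Here and below CPM is a gene's count relative to its library's total, scaled by edgeR's TMM method over all 8 libraries.

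On chromosome 4 of GRCm38 lie 6 of the receptor genes within 10.8 Mb, from Tnfrsf1b (145213463 to 145246870, minus strand) and Tnfrsf8 (145267137 to 145315164, minus strand) through Tnfrsf9 (150914562 to 150946102) and Tnfrsf25 (152115934 to 152120119) to Tnfrsf4 (156013843 to 156016612) and Tnfrsf18 (156026164 to 156028895), the last 4 on the plus strand. Tnfrsf4 and Tnfrsf18 are 9.55 kb apart, and Tnfrsf1b and Tnfrsf8 are 20.3 kb apart with 0 annotated genes between them. Cd28 (60716800 to 60773359) and Icos (60977927 to 61000320) flank Ctla4 on the plus strand of chromosome 1, and Cd27 lies on the minus strand of chromosome 6 (125232622 to 125237010). Exons of the antisense gene Gm16008 overlapped 27.2% of the exon length of Tnfrsf18. Its own total was 42 to 326 counts per library, against 4476 or more for Tnfrsf18. Since the strand setting of the counting is not stated, reads in the shared bases cannot be assigned to a strand.

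Promoter windows of RefSeq (GRCm38.p6), from 250 bases before to 50 bases after an annotated start, were at hand for 7 of the 9 genes. Those of Tnfrsf4 and Tnfrsf18 are shown because these neighbours followed each other most closely across the libraries. Tnfrsf9 is included because it passed the test in WT TIL, with the window of its downstream start alone. All 3 are on the plus strand, at chr4:156013445-156013744, chr4:156026072-156026371 and chr4:150927749-150928048, in that order, and capitals mark letters that match the NF-kappaB consensus or the string TGANTCA of AP-1 sites. The Tnfrsf4 window ends before the first exon base that the count files give for this gene.
Tnfrsf4: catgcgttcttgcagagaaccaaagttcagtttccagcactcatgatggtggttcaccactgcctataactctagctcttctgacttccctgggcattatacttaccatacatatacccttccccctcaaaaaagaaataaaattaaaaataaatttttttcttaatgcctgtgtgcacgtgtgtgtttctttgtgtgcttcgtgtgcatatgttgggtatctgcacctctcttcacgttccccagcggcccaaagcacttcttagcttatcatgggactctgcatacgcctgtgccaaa
Tnfrsf18: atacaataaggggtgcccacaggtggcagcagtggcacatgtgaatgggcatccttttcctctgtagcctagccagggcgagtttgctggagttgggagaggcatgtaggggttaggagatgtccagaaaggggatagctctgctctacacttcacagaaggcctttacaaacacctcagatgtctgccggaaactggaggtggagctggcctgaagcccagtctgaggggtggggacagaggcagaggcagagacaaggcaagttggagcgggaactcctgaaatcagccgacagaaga
Tnfrsf9: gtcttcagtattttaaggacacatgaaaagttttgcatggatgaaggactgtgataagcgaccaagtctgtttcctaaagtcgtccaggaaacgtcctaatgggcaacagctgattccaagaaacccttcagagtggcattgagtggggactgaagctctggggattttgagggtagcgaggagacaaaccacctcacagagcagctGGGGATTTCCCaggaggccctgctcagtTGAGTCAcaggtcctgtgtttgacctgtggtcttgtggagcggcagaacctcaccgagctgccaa
Matches on both strands were searched in all 32851 windows of the same length. The NF-kappaB consensus occurred in 8.46% of all windows and TGANTCA in 7.81%. The downstream window of Tnfrsf9 held both, with the overlapping NF-kappaB matches beginning 43 and 42 bases before the start and TGANTCA 15 bases before it. Its upstream window (chr4:150919905-150920204), not shown, held neither. Tnfrsf8 held both as well. Tnfrsf25 held the NF-kappaB consensus alone, in its downstream window and not in its upstream one. The strings GTGAAAG and AAGTGAAA, which overlap each other and lie within the sequence that Blimp1 recognizes, were in 4.24% and 1.6% of all windows and in 0 of the windows of these receptors. A match of letters is a description and not evidence of binding.

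**Figure D1:**
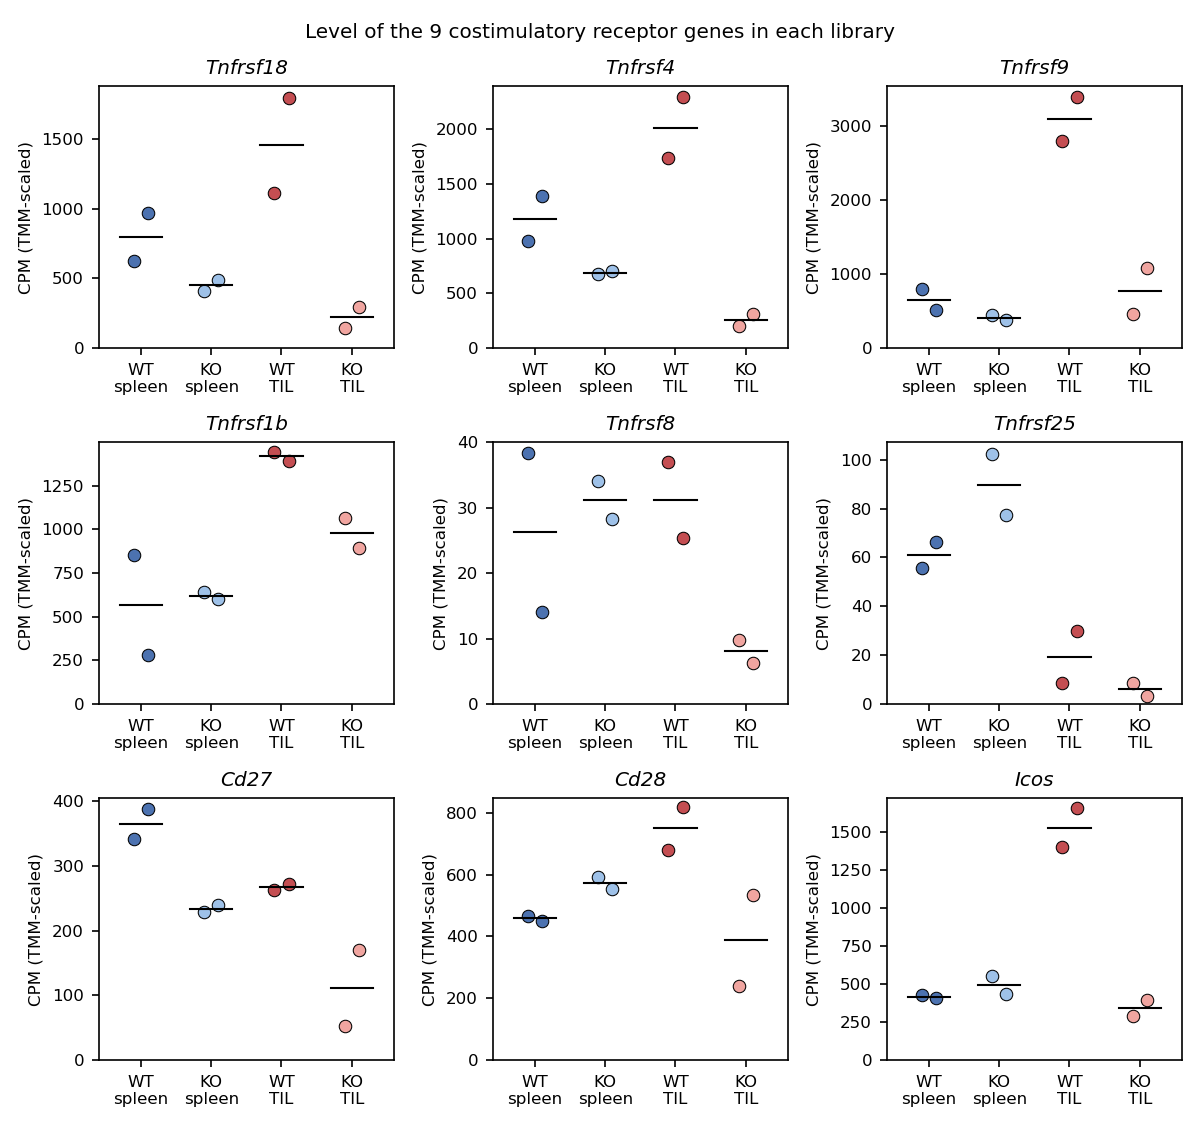
TMM-scaled CPM (vertical axes, linear and starting at 0) of the 9 receptor genes in WT spleen, KO spleen, WT TIL and KO TIL (horizontal axes); each point is 1 library and each bar the mean of 2. In every panel both KO TIL points sit below both WT TIL points, while Tnfrsf25 is highest in spleen and Cd27 in WT spleen.

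The first question was whether loss of Blimp1 goes with a different receptor profile in the tumor. In TIL, all 9 receptors were lower in both KO libraries than in both WT libraries, where 20% of the 15935 genes tested lay in that order. Differences reached 7.9-fold for Tnfrsf4 and 6.66-fold for Tnfrsf18 and were 1.45-fold for Tnfrsf1b. A gene was called at a Benjamini-Hochberg adjusted p under 0.05 and a log2 fold change beyond 1 in either direction. By this rule edgeR's quasi-likelihood test called 0 of 9, as was true of all genes (0%). At an unadjusted p of 0.05, 5 of 9 were lower (Tnfrsf4, Icos, Tnfrsf18, Tnfrsf8 and Tnfrsf9), against 3.53% of all genes, and the Wald test of DESeq2 called these 5 genes from the same libraries, against 1.2% of all genes called lower. The median log2 fold change was -1.96 over the receptors and 0.04 over all genes tested.

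Cell markers moved beside this result. The summed CPM of the T cell genes Cd3d, Cd3e, Cd3g and Cd247 was 3046 and 3903 in WT TIL and 851.2 and 3186 in KO TIL, and that of 5 Treg genes (Foxp3, Il2ra, Ikzf2, Ikzf4 and Ctla4) was 5141 and 7014 against 619.0 and 1083. CD8 T cell genes summed to 148.0 and 48.3 CPM in WT TIL and 406.0 and 2222 CPM in KO TIL. Macrophage genes summed to 3163 and 540.8 CPM against 14764 and 1719, neutrophil genes to 59.7 and 4.52 against 321.9 and 175.7, and melanoma genes to 2078 and 1140.1 against 3201 and 830.1. In neither TIL group was any gene of the 12 marker lists at 0 in both libraries. In such bulk libraries fewer cells of a type and less RNA per cell cannot be told apart, and the part of these other cells in the receptor levels was not tested.

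Scaled to the counts of Cd3d, Cd3e and Cd3g in the same library, 5 receptors (Tnfrsf18, Tnfrsf4, Tnfrsf9, Cd27 and Icos) were also lower in both KO TIL libraries. The other 4 overlapped between the genotypes, and 1.88% of all genes tested were lower in that way. The T cell gene sum was itself lowest in KO TIL replicate 1. This scale does not adjust for CD8 T cells, whose gene sum was highest in KO TIL replicate 2 (2222 CPM). That library had the lowest TIL value of each of these 5 receptors. The part of CD8 T cells in these values was not tested. Per 100 Cd3 counts, Tnfrsf4 had 62.6 and 64 counts in WT TIL and 25.6 and 10.4 in KO TIL. Tnfrsf18 had 40.3 and 50.4 against 18.2 and 9.98, and Icos had 50.5 and 46.2 against 36.9 and 13.2. For Cd28 the values were 24.6 and 22.9 against 30.8 and 17.9, so its lower CPM was not seen relative to Cd3. Tnfrsf1b, a receptor also carried by myeloid cells, had 52 and 39 in WT TIL and 136.2 and 30 in KO TIL, the highest value in the KO library with the largest macrophage sum. Scaling to Cd4, chosen after the data were seen, says little about the receptors, since Cd4 was itself 8.88-fold lower in KO TIL. With it 6 receptors were higher in both KO TIL libraries and 0 lower, where 97.2% and 0.264% of all genes tested lay in those orders. Tnfrsf18, Tnfrsf4 and Tnfrsf9 overlapped between the genotypes on that scale.

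**Figure D2:**
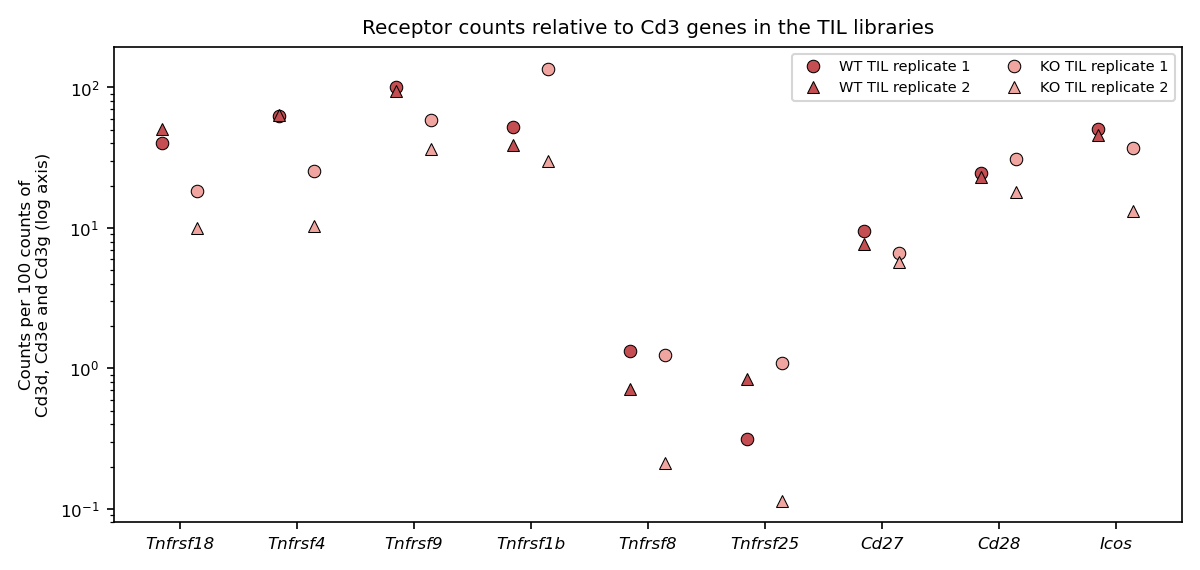
Counts of each receptor per 100 counts of Cd3d, Cd3e and Cd3g (vertical log axis) in the 4 TIL libraries, with circles for replicate 1 and triangles for replicate 2. Tnfrsf18, Tnfrsf4, Tnfrsf9, Cd27 and Icos are lower in both KO libraries, and Tnfrsf1b runs from 30 to 136.2 in KO.

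The same comparison in spleen showed smaller differences in both directions. Tnfrsf18, Tnfrsf4, Tnfrsf9 and Cd27 were lower in both KO spleen libraries by 1.57- to 1.78-fold, and Tnfrsf25, Cd28 and Icos were higher in both by 1.19- to 1.46-fold, where 16.1% and 16.3% of 16583 genes tested lay in those orders. No receptor passed in edgeR's test (0 of 9, and 0% of all genes), at an unadjusted p of 0.05 (0 of 9, against 2.95%) or in DESeq2's test (0 of 9, against 0.418%), with adjusted p-values of 0.878 to 0.954 by edgeR.

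The tumor was compared with the spleen within each genotype. In WT eTreg cells, 2 of 9 receptors passed edgeR's test, both higher in TIL (Tnfrsf9 and Icos), against 4.1% of 16427 genes called higher and 5.97% in either direction. DESeq2 also called Tnfrsf9 and Icos, against 6.55% of all genes called higher. Both TIL libraries were higher for 6 receptors and lower for 2, the orders of 25.9% and 26.2% of all genes. In the libraries labelled KO, 0 of 9 receptors passed edgeR's test, against 1.35% of 16933 genes. At an unadjusted p of 0.05 there were 1 higher and 3 lower in KO TIL, against 17.4% and 13.7% of all genes, and DESeq2 called 3 lower (Tnfrsf4, Tnfrsf8 and Tnfrsf25), against 6.65%. Both KO TIL libraries were higher for 2 receptors and lower for 7, where 32% and 31.5% of all genes lay in those orders. Per Cd3 counts the same comparison had 3 receptors higher (Tnfrsf9, Tnfrsf1b and Cd28), 1 lower (Tnfrsf25) and 5 that overlapped, against 50% of all genes higher and 5.81% lower.

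**Figure D3:**
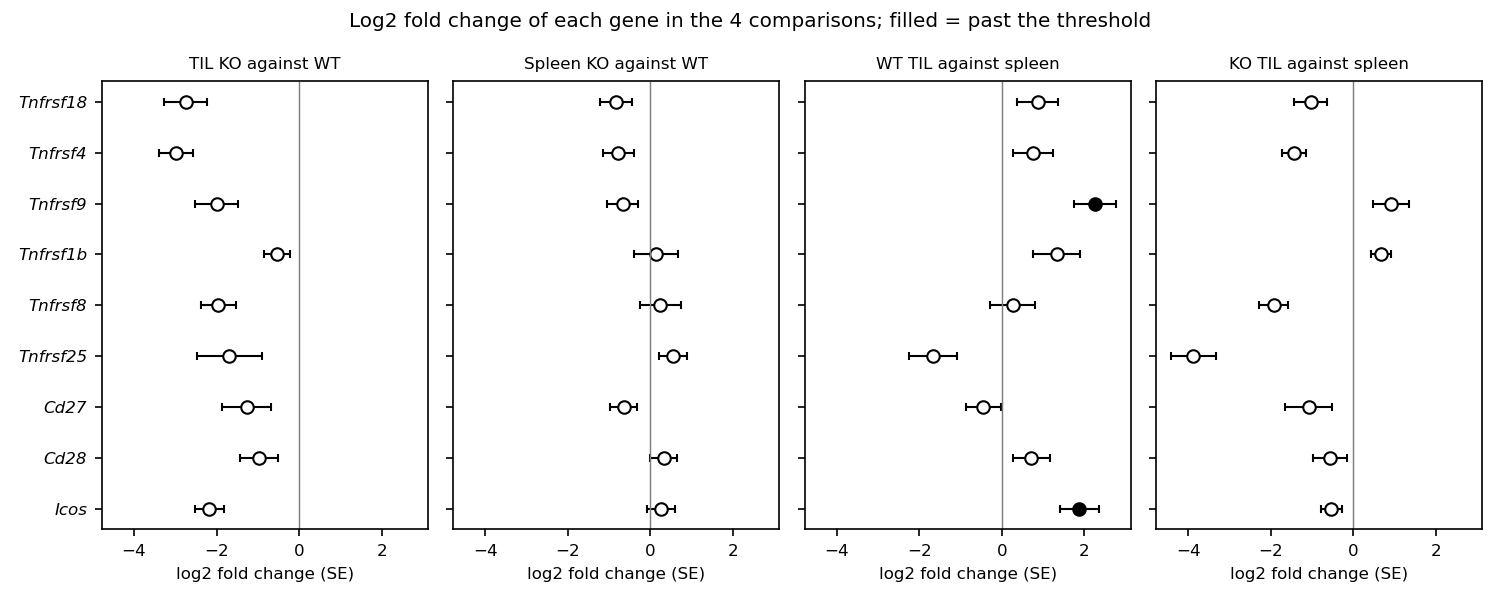
Log2 fold change (horizontal axes) of each receptor in the 4 comparisons, from edgeR's fits on 4 libraries each, with bars of 1 standard error; filled points passed the threshold. All 9 lie below 0 for KO against WT in TIL, and the filled points are Tnfrsf9 (2.25) and Icos (1.88) for WT TIL against spleen.

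An interaction term in a fit of all 8 libraries asked whether the KO against WT difference itself differed between tumor and spleen. All 9 interaction terms were negative, that is, lower in TIL relative to spleen, and 0 of 9 passed edgeR's test, as was true of all genes (0%). At an unadjusted p of 0.05 there were 5 (Icos, Tnfrsf4, Tnfrsf8, Tnfrsf18 and Tnfrsf25), all negative, against 2.75% of 17870 genes, and DESeq2 called 2, Tnfrsf4 and Icos, against 0.588% called negative.

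GITR and OX40 are receptors that Treg cells carry without stimulation and raise on activation. Tnfrsf18 was at 622.6 and 973.3 CPM in WT spleen, 412.8 and 487.3 in KO spleen, 1118 and 1801 in WT TIL and 142.1 and 297.3 in KO TIL. Tnfrsf4 was at 974.3 and 1389.9 CPM in WT spleen, 680.2 and 699.5 in KO spleen, 1735 and 2289.6 in WT TIL and 200.3 and 310.6 in KO TIL. Both genes thus had the same order of the 4 groups, with WT TIL above WT spleen, KO spleen and KO TIL and no overlap between neighbouring groups. For KO against WT in TIL, the log2 fold change was -2.74 (SE 0.52, adjusted p = 0.226 by edgeR, 2.0e-04 by DESeq2) for Tnfrsf18 and -2.98 (SE 0.41, adjusted p = 0.177 by edgeR, 3.7e-07 by DESeq2) for Tnfrsf4. In spleen the same values were -0.83 (SE 0.39) and -0.78 (SE 0.37). Here and below, fits with a library left out used the remaining libraries of all 4 groups. A call lost or gained in such a fit cannot be told apart from this change of fit. Tnfrsf4 was at -3.34 in TIL without KO TIL replicate 2. Tnfrsf18 was at -2.29 without KO TIL replicate 1 and at -3.37 without KO TIL replicate 2. The interaction terms were -1.91 (SE 0.65, adjusted p = 0.486 by edgeR) and -2.20 (SE 0.53, adjusted p = 0.287 by edgeR, 0.0203 by DESeq2).

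Between tissues these receptors differed in opposite directions in the 2 genotypes. Tnfrsf18 had a log2 fold change of 0.87 (SE 0.50) for TIL over spleen in WT and of -1.03 (SE 0.40) in KO, and Tnfrsf4 of 0.76 (SE 0.48) and -1.43 (SE 0.29), with adjusted p-values from 0.0648 to 0.416 by edgeR. DESeq2 called Tnfrsf4 lower in KO TIL than in KO spleen (adjusted p = 0.00389). Scaled to Cd3, the KO TIL and KO spleen values of Tnfrsf18 (18.2 and 9.98 against 12 and 15.4 per 100 Cd3 counts) overlapped, as did those of Tnfrsf4 (25.6 and 10.4 against 19.7 and 22.2).

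The 4-1BB receptor appears on T cells after antigen stimulation. Tnfrsf9 was at 791.6 and 506.4 CPM in WT spleen, 446.2 and 373.9 in KO spleen, 2787 and 3383 in WT TIL and 460.7 and 1084 in KO TIL. WT TIL stood above every other library, and KO TIL lay above KO spleen while it overlapped WT spleen. Tnfrsf9 rose 4.76-fold from spleen to TIL in WT (log2 2.25, SE 0.51, adjusted p = 0.0286 by edgeR, 8.6e-05 by DESeq2). In KO the log2 fold change was 0.92 (SE 0.44, adjusted p = 0.238 by edgeR), and for KO against WT in TIL it was -2.00 (SE 0.52, adjusted p = 0.303 by edgeR, 0.0154 by DESeq2), with -1.51 without KO TIL replicate 1 and -2.75 without KO TIL replicate 2. The interaction was -1.34 (SE 0.65, adjusted p = 0.692 by edgeR). The WT call was lost without WT spleen replicate 2, WT TIL replicate 1 or WT TIL replicate 2, at log2 values of 1.96, 2.42 and 2.11. Per 100 Cd3 counts, Tnfrsf9 had 100.6 and 94.6 counts in WT TIL, 58.9 and 36.4 in KO TIL, 21.5 and 10.6 in WT spleen and 12.9 and 11.9 in KO spleen, so both TIL groups lay above both splenic groups.

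TNFR2 binds TNF, CD30 marks activated lymphocytes and DR3 is a receptor with a death domain. Tnfrsf1b was at 854.2 and 279.5 CPM in WT spleen, 639.2 and 601.4 in KO spleen, 1441 and 1393 in WT TIL and 1066 and 892.8 in KO TIL. It was the receptor with the smallest difference between genotypes in TIL (log2 -0.54, SE 0.31, adjusted p = 0.683 by edgeR), and it was higher in TIL than in spleen in both genotypes (log2 1.33, SE 0.57, in WT and 0.68, SE 0.24, in KO; adjusted p = 0.222 and 0.145 by edgeR). The WT value was 2.37 without WT spleen replicate 1. In spleen its KO against WT value of 0.13 turned to -0.46 without WT spleen replicate 2.

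Tnfrsf8 was among the least abundant receptors, at 38.4 and 14 CPM in WT spleen, 34.1 and 28.2 in KO spleen, 36.9 and 25.3 in WT TIL and 9.75 and 6.32 in KO TIL. The KO TIL libraries stood below all others, and the other groups overlapped. Its log2 fold change for KO against WT in TIL was -1.96 (SE 0.42, adjusted p = 0.261 by edgeR, 0.00758 by DESeq2), and for TIL against spleen in KO it was -1.93 (SE 0.35, adjusted p = 0.0607 by edgeR, 2.9e-04 by DESeq2). Per 100 Cd3 counts the 2 KO TIL libraries held 1.25 and 0.212 counts of Tnfrsf8, and the WT TIL libraries 1.33 and 0.709, so the genotypes overlapped.

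Tnfrsf25, which encodes the receptor of TL1A, was the only one of the 9 with every TIL library below every splenic library. It was at 55.7 and 66.5 CPM in WT spleen, 102.3 and 77.3 in KO spleen, 8.7 and 29.8 in WT TIL and 8.57 and 3.4 in KO TIL. The highest values were those of KO spleen. The log2 fold change of TIL over spleen was -1.67 (SE 0.58, adjusted p = 0.136 by edgeR, 0.069 by DESeq2) in WT, with -1.01 without WT TIL replicate 1 and -2.80 without WT TIL replicate 2, and -3.87 (SE 0.55, adjusted p = 0.054 by edgeR, 1.3e-09 by DESeq2) in KO. The KO value was -4.06 without KO spleen replicate 2, -4.71 without KO TIL replicate 1 and -3.34 without KO TIL replicate 2. For KO against WT in TIL it was -1.69 (SE 0.78, adjusted p = 0.579 by edgeR) and ran from -0.54 without WT TIL replicate 2 to -2.50 without KO TIL replicate 1. Tnfrsf25 was also lower in TIL than in spleen per 100 Cd3 counts, at 0.314 and 0.834 in WT and 1.1 and 0.114 in KO against 1.51 and 1.39 in WT spleen and 2.96 and 2.45 in KO spleen.

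CD27 binds CD70 and is carried by naive and memory T cells. Cd27 was at 342.4 and 388.5 CPM in WT spleen, 229.3 and 239.4 in KO spleen, 263.0 and 272.9 in WT TIL and 52 and 170.1 in KO TIL. The groups did not overlap and stood in the order WT spleen, WT TIL, KO spleen and KO TIL from high to low. For KO against WT, the log2 fold change was -1.27 (SE 0.59, adjusted p = 0.579 by edgeR) in TIL and -0.65 (SE 0.33, adjusted p = 0.878 by edgeR) in spleen. The TIL value was -0.65 without KO TIL replicate 1 and -2.38 without KO TIL replicate 2. Relative to Cd3 the TIL values lay close together, at 9.49 and 7.63 per 100 counts in WT and 6.65 and 5.71 in KO. Its log2 fold change for TIL over spleen in KO was -1.08 in the fit of 4 libraries and -2.13 without KO TIL replicate 2.

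CD28 is carried by resting T cells, and ICOS appears after their activation. Cd28 was at 465.9 and 450.8 CPM in WT spleen, 592.8 and 553.1 in KO spleen, 681.7 and 819.6 in WT TIL and 241.2 and 534.4 in KO TIL. Icos was at 426.7 and 403.9 CPM in WT spleen, 553.6 and 435.8 in KO spleen, 1400.1 and 1652 in WT TIL and 289.1 and 392.0 in KO TIL. For both genes KO lay above WT in spleen and below WT in TIL. Icos rose 3.68-fold from spleen to TIL in WT (log2 1.88, SE 0.47, adjusted p = 0.042 by edgeR, 7.5e-04 by DESeq2), a call lost without WT spleen replicate 2, WT TIL replicate 1 or WT TIL replicate 2, at 1.84, 2.02 and 1.76. In KO its value was -0.53 (SE 0.26, adjusted p = 0.247 by edgeR). For KO against WT in TIL, the log2 fold change was -2.17 (SE 0.35, adjusted p = 0.201 by edgeR, 1.4e-04 by DESeq2) for Icos and -0.96 (SE 0.46, adjusted p = 0.601 by edgeR) for Cd28. Without KO TIL replicate 1 the Cd28 value was -0.49 and without KO TIL replicate 2 it was -1.65. Per Cd3 counts Cd28 was higher in KO TIL (30.8 and 17.9 per 100) than in KO spleen (17.2 and 17.5), the opposite of its CPM, and Icos overlapped between these groups. Icos had the largest interaction term of the 9 (-2.42, SE 0.47, adjusted p = 0.234 by edgeR, 0.00237 by DESeq2), and that of Cd28 was -1.27 (SE 0.57, adjusted p = 0.657 by edgeR).

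Levels of different genes were compared as TPM, the count per exon length relative to the sum of such values in the library. The 9 receptors together made up 5522 and 3735 TPM in WT spleen, 3941 and 4117 in KO spleen, 9699.6 and 12721 in WT TIL and 1937 and 3119.9 in KO TIL. Tnfrsf4 led in WT spleen, KO spleen and WT TIL, with a mean of 3565 ± 739.3 TPM (SD, n = 2) in WT TIL. It was followed there by Tnfrsf9 (2739.7 ± 408.8 TPM) and Tnfrsf18 (2317 ± 795.1 TPM), whose ranges overlapped, and then by Icos (1075 ± 139.2 TPM) and Tnfrsf1b (896.2 ± 9.92 TPM). In KO TIL the order was led by Tnfrsf9 (389.7 and 932.1 TPM) and Tnfrsf1b (643.1 and 547.5 TPM), which overlapped, ahead of Tnfrsf4 (337.9 and 532.8 TPM), Tnfrsf18 (214.7 and 456.8 TPM) and Icos (194.1 and 267.6 TPM), of which each overlapped the next. Tnfrsf8 and Tnfrsf25 were the lowest in all 4 groups, at 3.5 to 117.1 TPM.

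Within libraries the balance between related receptors also differed. Tnfrsf4 exceeded Tnfrsf18 per length in every library, by 1.17- to 1.84-fold. The Icos level per length was 3.67 and 3.6 times that of Cd28 in WT TIL, 1.63 and 1.6 times in WT spleen, 1.67 and 1.41 times in KO spleen and 2.14 and 1.31 times in KO TIL, so the 2 WT TIL libraries stood above the rest. Tnfrsf1b exceeded its neighbour Tnfrsf8 by 17- to 20.1-fold in spleen, 35.3- and 49.8-fold in WT TIL and 99.1- and 127.9-fold in KO TIL. Tnfrsf1b made up 33.2% and 17.5% of the summed TPM of the 9 receptors in KO TIL and 9.31% and 6.99% in WT TIL, whereas Tnfrsf4 made up 17.4% and 17.1% against 31.4% and 32.1%.

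**Figure D4:**
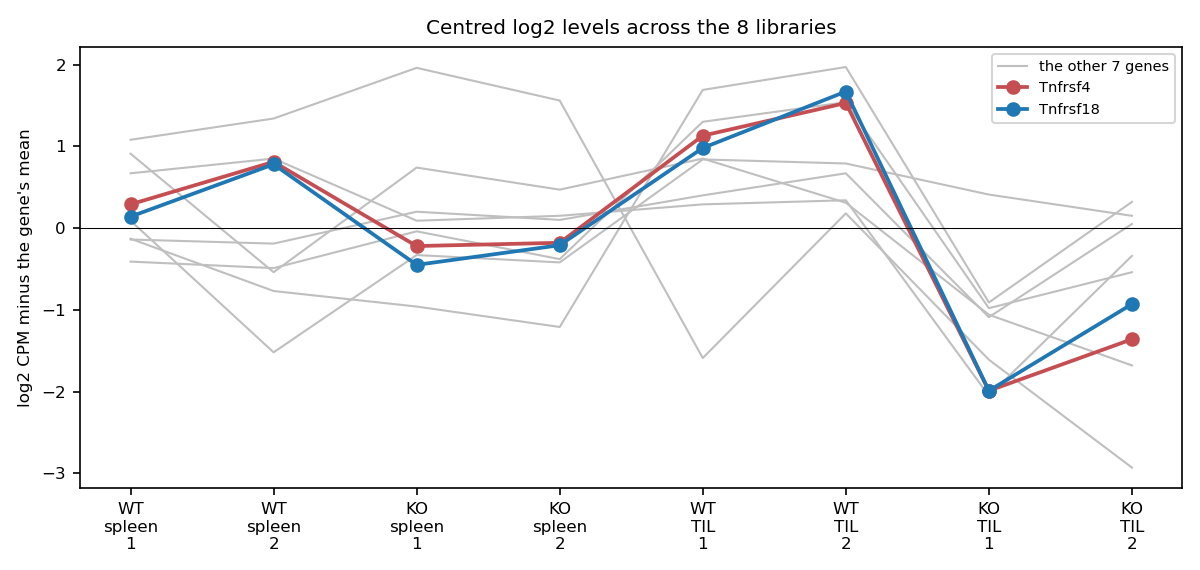
Log2 CPM of each receptor minus its own mean (vertical axis) across the 8 libraries (horizontal axis). The lines of Tnfrsf4 and Tnfrsf18 run together (root mean square difference 0.19), and the other 7 receptors are drawn in grey.

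Likeness of pattern was measured as the root mean square difference in centred log2 CPM over the 8 libraries, among 8982 genes with a mean of at least 10 CPM. Libraries share their depth and cell makeup across genes, so these values are a description. Tnfrsf18 and Tnfrsf4 were each other's nearest gene, at 0.19, and the next for both was Cd2 (0.37 and 0.36), which encodes an adhesion receptor of T cells. Nearest to Tnfrsf9 were Samsn1 (0.28), Sytl2 (0.42) and Fam110a (0.46). Tnfrsf1b was nearest to Nfkb2 (0.18), a subunit of NF-kappaB, then to Aplp2 and Fam126a (0.19 each), and its nearest receptor of the list was Icos at 0.75. The T cell receptor gene Trac (0.21) and the CD3 zeta gene Cd247 (0.23) were nearest to Cd27, followed by Gimap9 (0.24). For Cd28 the nearest were H2-T-ps (0.15), Ndfip1 (0.16) and Akap12 (0.20), and for Icos Slc39a4 (0.26), Sdf4 (0.34) and Glrx (0.35). Galm, Cpm and Paqr8 (0.27 to 0.30) were nearest to Tnfrsf8, and Fcrl1, Matn2 and Gpr15 (0.41 to 0.49) to Tnfrsf25.

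Most ligands of these receptors had log2 fold changes in the other direction in TIL. In CPM the KO and WT TIL libraries overlapped for Tnfsf9, Tnf, Tnfsf8, Tnfsf15 and Cd70. Tnfsf18 had at most 20 counts in a TIL library. Of 11 ligand genes, 10 were higher and 1 lower in KO TIL than in WT TIL, with a median log2 of 1.32 against 0.04 over all genes. None passed edgeR's test, 4 were higher at an unadjusted p of 0.05 (6.34% of all genes were), and DESeq2 called 1 higher (3.49% of all genes). Cd80 and Cd86, the B7 ligands of CD28 on antigen-presenting cells, had log2 fold changes of 1.32 (SE 0.46, adjusted p = 0.451 by edgeR) and 1.33 (SE 0.47, adjusted p = 0.462 by edgeR). Cd86 was at 59.7 and 54.9 CPM in WT TIL and 204.5 and 83.9 CPM in KO TIL, highest in the library with the macrophage sum of 14764 CPM. The part of other cells in these ligand levels was not tested. In WT, Tnfsf9, the ligand of 4-1BB, passed the test together with its receptor, from 8.2 and 6.57 CPM in spleen to 50.2 and 53.6 CPM in TIL (log2 2.81, SE 0.47, adjusted p = 0.00781 by edgeR). It was the 1 ligand called of 10 tested, where edgeR called 4.1% of all genes higher and 5.97% in either direction. In KO, 0 of 11 ligands were called by edgeR between TIL and spleen, against 1.35% of all genes. Unadjusted, 5 were higher and 2 lower in KO TIL (17.4% and 13.7% of all genes), and DESeq2 called 5 higher and 1 lower (13.2% and 6.65% of all genes). Tnfsf8, the CD30 ligand, had a log2 value of -2.97 (SE 0.38, adjusted p = 0.0501 by edgeR) and Tnfsf4, the OX40 ligand, of 4.06 (SE 0.79, adjusted p = 0.0642 by edgeR). Tnfsf4 was at 15 and 59.9 CPM in KO TIL and 2.75 and 1.72 CPM in KO spleen.

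The other TNF receptor superfamily genes did not share one direction between KO and WT in TIL. Of 17 other TNF receptor superfamily genes tested in TIL, 12 were higher and 5 lower in KO, with 0 called by edgeR, 2 higher at an unadjusted p of 0.05 (6.34% of all genes), 1 called higher by DESeq2 (3.49% of all genes) and a median log2 of 0.82. That 1 gene was Tnfrsf11a (RANK), at 5.14 and 0.776 CPM in WT TIL and 70.5 and 7.93 CPM in KO TIL (log2 3.73, SE 1.35, adjusted p = 0.468 by edgeR, 0.0143 by DESeq2). Its highest level was in KO TIL replicate 1, the library with the macrophage sum of 14764 CPM. Among other genes of the list, chosen after their values were seen, Cd40 (13.5 and 5.03 against 102.3 and 10.5 CPM), Ltbr (19.8 and 7.97 against 74.7 and 9.43 CPM), Tnfrsf1a (57 and 37.9 against 259.4 and 49.3 CPM) and Tnfrsf21 (24.3 and 7.09 against 102.4 and 14.5 CPM) were also highest in that library. The part of other cells in these levels was not tested. Tnfrsf26 had a log2 of 0.97 (SE 0.37, adjusted p = 0.485 by edgeR). Between WT TIL and spleen, Tnfrsf11b (osteoprotegerin, a soluble decoy receptor) passed higher, with 0 counts in both splenic libraries and 76 and 72 counts in TIL, and Tnfrsf26 passed lower (log2 -2.06, SE 0.45, adjusted p = 0.0252 by edgeR). Between KO TIL and spleen 0 of 17 were called by edgeR, against 1.35% of all genes. At an unadjusted p of 0.05, 6 were higher and 4 lower (17.4% and 13.7% of all genes), and DESeq2 called 7 higher and 3 lower (13.2% and 6.65%). The 3 other CD28 family genes, the inhibitory receptors Ctla4, Btla and Pdcd1, had negative log2 fold changes for KO against WT in TIL. None was called by edgeR, and Ctla4 and Btla were lower at an unadjusted p of 0.05 (3.53% of all genes were). For Pdcd1 the WT TIL libraries had 1142 and 1544 CPM. Its KO TIL libraries had 417.8 and 1399 CPM, the second of which lay within the WT range (log2 -0.57, SE 0.62, adjusted p = 0.893 by edgeR). Ctla4, which lies between Cd28 and Icos, was at 4138 and 5721 CPM in WT TIL and 461.2 and 917.9 CPM in KO TIL (log2 -2.84, SE 0.50, adjusted p = 0.212 by edgeR, 2.8e-05 by DESeq2), and Btla had a log2 of -0.98 (SE 0.30, adjusted p = 0.38 by edgeR). In WT, Ctla4 rose from 389.4 and 310.7 CPM in spleen to the TIL level (log2 3.82, SE 0.54, adjusted p = 0.00398 by edgeR), and in KO Btla fell from 181.2 and 147.3 CPM in spleen to 29.2 and 30.7 CPM in TIL (log2 -2.44, SE 0.22, adjusted p = 0.0373 by edgeR).

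**Figure D5:**
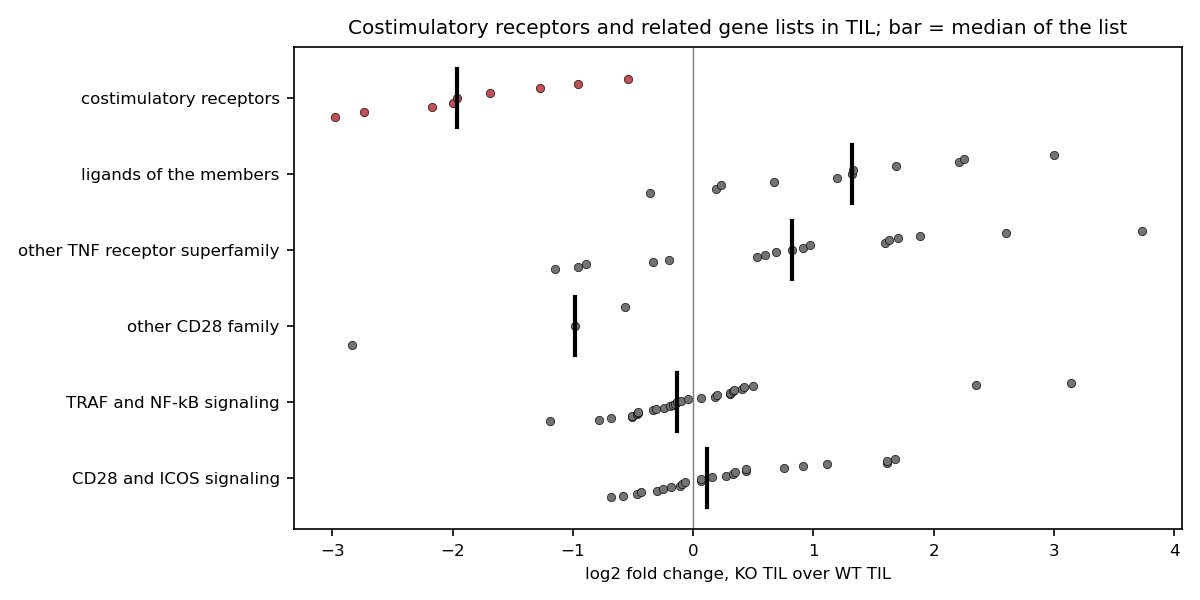
Log2 fold change of KO TIL over WT TIL (horizontal axis) for the 9 costimulatory receptors (red) and the tested genes of 5 related lists (grey); each point is 1 gene and each bar the median of its list. The receptor median lies at -1.96 and the ligand median at 1.32, and 0 of these genes passed edgeR's test.

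Signaling genes downstream of the receptors lay near the middle of all genes in TIL. The 29 TRAF and NF-kappaB genes split into 12 higher and 17 lower in KO TIL (median log2 -0.13), and 24 CD28 and ICOS signaling genes into 14 higher and 10 lower (median 0.11), with 0 called by edgeR in either list. At an unadjusted p of 0.05 the first list had 2 higher and 2 lower and the second 3 higher, where 6.34% of all genes were higher and 3.53% lower, and DESeq2 called 2 and 1 higher (3.49% of all genes). Otulin, a deubiquitinase of linear ubiquitin, was at 5.64 and 5.03 CPM in WT TIL and 40.5 and 53.8 CPM in KO TIL (log2 3.14, SE 0.36, adjusted p = 0.177 by edgeR, 1.2e-08 by DESeq2). Map3k7 (TAK1) had a log2 of 2.35 (SE 0.36, adjusted p = 0.18 by edgeR), Grb2 of 1.61 (SE 0.40, adjusted p = 0.297 by edgeR) and Akt1 of 1.11 (SE 0.32, adjusted p = 0.343 by edgeR). Between WT TIL and spleen, Tnfaip3 (A20, an inhibitor of NF-kappaB) and Rel (c-Rel) rose with log2 values of 3.38 (SE 0.60, adjusted p = 0.0101 by edgeR) and 1.88 (SE 0.48, adjusted p = 0.0472 by edgeR), and Otulin fell by 2.93 on the log2 scale (SE 0.58, adjusted p = 0.0178 by edgeR). Tnfaip3 rose between KO spleen and KO TIL as well (log2 2.92, SE 0.30, adjusted p = 0.0383 by edgeR), at 1311 and 2119 CPM in WT TIL and 1600.0 and 1174 CPM in KO TIL. No CD28 and ICOS signaling gene was called by edgeR between tissues in either genotype, against 5.97% of all genes in WT and 1.35% in KO. At an unadjusted p of 0.05 there were 0 higher and 2 lower in WT, against 10.4% and 10.1% of all genes, and 2 higher and 3 lower in KO, against 17.4% and 13.7%. DESeq2 called 1 lower in WT (3.45% of all genes) and 3 higher and 1 lower in KO (13.2% and 6.65%). In the splenic comparison of genotypes 0 genes of the 5 lists were called by edgeR or by DESeq2, and 1, Cd80, was higher at an unadjusted p of 0.05 (log2 1.43, SE 0.43, adjusted p = 0.878 by edgeR). In the interaction fit edgeR called 0 genes of these lists, 6 were positive and 3 negative at an unadjusted p of 0.05 (5.08% and 2.75% of all genes), and, where it called 1.27% of all genes positive and 0.588% negative, DESeq2 called Tnfrsf11a (4.68), Otulin (3.75) and Ctla4 (-2.67 on the log2 scale by edgeR).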

How the data were processed

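The authors trimmed reads with Trimmomatic 0.36, aligned them to GRCm38 with STAR 2.5.2b and deposited raw counts per gene, of unique reads within exons, from featureCounts (Subread 1.5.2), beside each gene's exon length. Ultra-low input libraries were made without molecular identifiers being mentioned. A deposited table of normalized counts was not used here. Library totals of 27834676 to 43903859 counts set the precision, which covers counting error only. A chi-square test of counts between replicates gave 37.2 to 344 per degree of freedom, beyond sampling noise, and no replicates were merged.

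Groups came from the genotype and tissue labels. Each comparison used edgeR 4.0.16 (R 4.3.3) on its 4 libraries, the interaction all 8, with TMM scaling, filterByExpr and the quasi-likelihood F test, and was called at a Benjamini-Hochberg adjusted p under 0.05 over all genes tested with an absolute log2 fold change over 1. Standard errors are the log2 fold change over the square root of F. The code was tested on simulated data. Alternatives were DESeq2 1.42.0, its size factors, no filter, all 8 libraries, a log2 threshold of 2, a replicate block, a GC offset and leaving out each library. Fits that left out a library kept the remaining libraries of all groups. TPM used the deposited exon lengths.

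All 9 receptors are reported. Of each related list, names were limited to called genes (at most 5 in each direction), or the 2 with the smallest unadjusted p where 0 were called. The 3 nearest genes by pattern were named for each receptor. Members and lists were chosen with earlier results of these data known.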

Additional observations from a re-analysis of the deposited data

Results flagged for a closer look

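For 3 receptors every KO library moved one way against WT in TIL and the other way in spleen. Of all genes tested, 20% were lower in both KO libraries in TIL and 16.3% were higher in both in spleen. The share of all genes with both orders was not counted. In CPM, KO lay above WT in spleen and below it in TIL for Tnfrsf25 (interaction log2 -2.24, SE 0.86, adjusted p = 0.563 by edgeR), Cd28 (-1.27, SE 0.57, adjusted p = 0.657 by edgeR) and Icos (-2.42, SE 0.47, adjusted p = 0.234 by edgeR). The nearest Tnfrsf25 values in TIL were 8.57 CPM in KO and 8.7 in WT. For Icos in spleen they were 435.8 CPM in KO and 426.7 in WT. Per Cd3 counts Tnfrsf25 and Cd28 overlapped between the genotypes in TIL, and Icos kept both directions.

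For 4 receptors the difference between tumor and spleen had opposite directions in the genotypes, with TIL above spleen in both WT libraries and below it in both KO libraries. These were Tnfrsf18 (interaction log2 -1.91, SE 0.65, adjusted p = 0.486 by edgeR), Tnfrsf4 (-2.20, SE 0.53, adjusted p = 0.287 by edgeR), Cd28 (-1.27) and Icos (-2.42), the last 2 with the same interaction term as above. None passed edgeR's test, and DESeq2 called Tnfrsf4 (adjusted p = 0.0203) and Icos (adjusted p = 0.00237). These directions are those of CPM. Of all genes tested, 25.9% were higher in both WT TIL libraries than in WT spleen. In KO, 31.5% were lower in both TIL libraries than in spleen. The share of all genes with both orders was not counted. Per Cd3 counts Cd28 was higher in KO TIL than in KO spleen (30.8 and 17.9 against 17.2 and 17.5 per 100), as in WT, and Tnfrsf18, Tnfrsf4 and Icos overlapped between the KO groups. Both comparisons share libraries, so they are not independent of each other.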

How the results depend on the processing

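With each setting other than leaving out a library, all 297 log2 fold changes of the receptors kept their direction. The number of all genes called, of those tested, is given in brackets. For KO against WT in TIL, the count of receptors past the threshold was 0 of 9 (0 of 15935). It became 5 with DESeq2 on the same 4 libraries (761 of 16234) and 5 with no filter (1072 of 26564). It was 5 with DESeq2 on 8 libraries (930 of 16501) and 3 with edgeR on 8 libraries (135 of 17870). For WT TIL against spleen it was 2 (981 of 16427) and became 1 at an absolute log2 fold change over 2 (930 of 16427). For KO TIL against spleen it was 0 (228 of 16933). It became 3 with DESeq2 on the same libraries (3819 of 19223), 3 with no filter (3183 of 27350) and 3 with DESeq2 on 8 libraries (3302 of 19201). It was 2 with edgeR on 8 libraries (1743 of 17870) and 1 with the GC offset (362 of 16199). For the interaction it was 0 (0 of 17870) and became 2 with DESeq2 (307 of 16501) and 5 with no filter (752 of 28921). DESeq2's interaction fit had a median log2 of 0.21 over all genes, against 0.07. In spleen, KO against WT gave 0 throughout, where the most genes were called with no filter (167 of 26144). The cause of these changes was not tested.

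With a library left out, KO against WT in spleen ran from -0.46 to 1.15 for Tnfrsf1b and from -0.30 to 1.15 for Tnfrsf8, both lowest without WT spleen replicate 2, and WT TIL against spleen ran from -0.31 (without WT spleen replicate 2) to 1.18 for Tnfrsf8, with -0.01 without WT TIL replicate 1. The other 212 of 216 values with a library left out kept their direction. The fits with a library left out used the remaining libraries of all groups, so a lone library was assumed to vary like those groups. Calls were gained as well as lost in such fits. Neither can be told apart from this change of fit.

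Replicate numbers are only names here, since no label ties them to a mouse or batch and only 2 pairs exist. Same-numbered deviations correlated at 0.23 for the genotypes in TIL, 0.15 in spleen, -0.02 for the tissues in WT and -0.22 in KO. With the replicate block the count was 5 for KO against WT in TIL (728 of 15935 genes, against 0 without the block). The count was 3 for WT TIL against spleen (1463 of 16427, against 981). For KO TIL against spleen it was 1 (192 of 16933, against 228). The count was 0 for KO against WT in spleen, where the block also raised the number of all genes called from 0. For the interaction it was 0 (0 of 17870). The gain in TIL was thus shared by genes outside the receptors. Ranking receptors by CPM instead of per length kept 7, 3, 5 and 1 of the 9 ranks in WT spleen, KO spleen, WT TIL and KO TIL.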
